A study of Drosophila melanogaster with 9 samples.

Results

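The genes described here were the abundant noncoding RNAs of Drosophila embryos. They were chosen by an annotated biotype of ncRNA, a listing in both deposited tables, and a mean of 100 or more over the 9 libraries, with the dosage compensation RNAs roX1 and roX2 left out. The rule found 52 members among 14306 genes listed in both tables, and 1348 further annotated noncoding RNAs fell under the limit. The biotype was read from the Ensembl release 115 annotation, because the biotype column deposited with the values held 0 genes called ncRNA or lncRNA and used lincRNA instead. By that column 50 of the 52 members were lincRNA, the 2 hairpin RNAs among them were pseudogenes, and the same rule would have taken 54 genes. The values that chose the members were the levels in all 9 libraries, mutants included. Just inside the limit were asRNA:CR42860 at a mean of 100.6, lncRNA:CR44440 at 103 and lncRNA:CR44779 at 108, and just outside it lncRNA:CR43264 at 98.6, lncRNA:CR45559 at 94.2 and lncRNA:CR43242 at 92.3.

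Whole embryos were collected 5 to 16 h after egg laying and RNA was sequenced from 3 replicates of each of 3 genotypes. Total RNA was extracted, but how RNA was selected for the libraries is not given in the sources used here. Levels of different kinds of RNA may therefore not compare with each other. Wild type was w1118. KahΔATG is a CRISPR deletion in Kahuli (Kah), a Snail-family zinc-finger transcription factor of the mesoderm, that removes most of exon 2 with the start codon, and KahΔZnF is a deletion within Kah that takes out the zinc-finger region in frame. Each allele is 1 CRISPR line and both were made with guides injected into embryos that carry vasa-Cas9. The methods state 1 embryo collection per genotype, whereas the sample labels do not say whether replicates shared a collection. If they did, collection and genotype cannot be told apart, and the p-values below measure only the spread between these samples. Whole embryos were measured, so that fewer cells of a type and less RNA per cell cannot be told apart either.

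Long noncoding RNAs are transcribed like messenger RNAs but encode no known protein. Some act as RNA in the nucleus, some are precursors whose introns or exons are cut into small nucleolar RNAs (snoRNAs) or microRNAs (miRNAs), and the function of most is unknown. snoRNAs guide chemical modification of ribosomal RNA, and miRNAs repress messenger RNAs that pair with them.

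The label of long noncoding RNA held for part of the group only. All 52 were at least 200 bases long (299 to 21710 bases, median 1666.5), but the group held 6 Uhg genes (snoRNA hosts), 7 genes with annotated miRNAs inside them, 2 hairpin RNAs, 5 genes named as antisense RNAs and RNaseP:RNA, the catalytic RNA of the enzyme that trims transfer RNA precursors. The other 31 were the remaining long noncoding RNAs, and of these lncRNA:CR42491 holds 1 annotated snoRNA, snoRNA:Psi18S-531. The 1348 noncoding RNAs under the limit had a median length of 687 bases. Of the members, 26 overlapped the span of a protein-coding gene, 17 on the opposite strand and 9 on the same strand. Among the 26 without such an overlap, the nearest protein-coding gene lay a median of 298 bases away and 22 lay within 1000 bases of one. The strand setting of the read counting is not given in the sources used here, so reads of a member and of a gene it overlaps may not have been told apart. Only 23 members had exons that overlapped no exon of any other annotated gene, with small RNAs and transposable elements included. Exons of 7 members overlapped annotated transposable elements. These were lncRNA:CR42839, lncRNA:CR44024, lncRNA:CR46064, lncRNA:CR43241, lncRNA:CR42646, lncRNA:CR45138 and hpRNA:CR33940, and what this did to their counts was not tested. A single exon made up the longest transcript model of 15 members.

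Each library held 17990440 to 20036769 reads on genes. The mitochondrial share of reads was 8.67% to 11.2% in KahΔZnF replicate 1 and w1118 replicates 2 and 3 and 15.3% to 16.6% in the other 6, a split that ran across the genotypes. Kah itself was at 368, 354 and 367 scaled counts in w1118, at 1683, 1521 and 1591 in KahΔATG and at 756, 666 and 753 in KahΔZnF. A scaled count is here the number of reads on a gene divided by a size factor of its library, with all 9 libraries scaled together. Summed over marker lists, muscle genes lay at 272808 to 367697 in w1118, 200179 to 234941 in KahΔATG and 141475 to 191149 in KahΔZnF, and neuronal genes at 19709 to 28652, 17467 to 20271 and 12777 to 15822. Maternally supplied RNAs lay at 7834 to 8469 in w1118, 9410 to 10096 in KahΔATG and 11330 to 12672 in KahΔZnF, and germ cell genes at 1239 to 1296, 1417 to 1573 and 1534 to 1780. In KahΔZnF the test below called 7 of 9 neuronal, 5 of 6 muscle and 3 of 4 hemocyte markers lower, and 4 of 6 maternal and 3 of 4 germ cell markers higher. In KahΔATG it called 1 of 9, 1 of 6 and 3 of 4 lower and 4 of 6 and 3 of 4 higher. Of 4 glial markers 1 was higher and 1 lower in KahΔZnF, and of 3 midgut markers 1 was lower in KahΔATG and 2 in KahΔZnF. Among 5 genes of adult gonads and flight muscle, Mst87F and Yp1 stayed under 10 scaled counts in every library. Of all genes tested, the same test called 14.7% higher and 10.6% lower in KahΔATG, and 23.8% higher and 25.5% lower in KahΔZnF. The part of these lists in the results below was not tested.

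The members took 0.31% to 0.559% of the reads of a library. A single RNA, lncRNA:CR42862 (3L:224106-230964, a gene of no function known here), gave 70.3% of the members' summed scaled counts. With it the sum lay between 62310 and 101665 per library, and without it between 21212 and 24639. Divided by length, the levels spanned from 10014 scaled counts per kb of exon for lncRNA:CR42862 to 12 for lncRNA:CR46003, as means of 9 libraries. After lncRNA:CR42862 came lncRNA:marge at 3582 per kb, lncRNA:CR42491 at 1403 and Uhg4 at 1143, and these 4 were the members above 1000 per kb. The heat shock RNA lncRNA:Hsromega ranked 2nd by count and 22nd per kb (170 per kb), being the longest member. lncRNA:CR42491 shares exon sequence with RpL22, a ribosomal protein gene on its own strand, and lncRNA:CR42862 with CG33229 on its own strand.

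**Figure D1:**
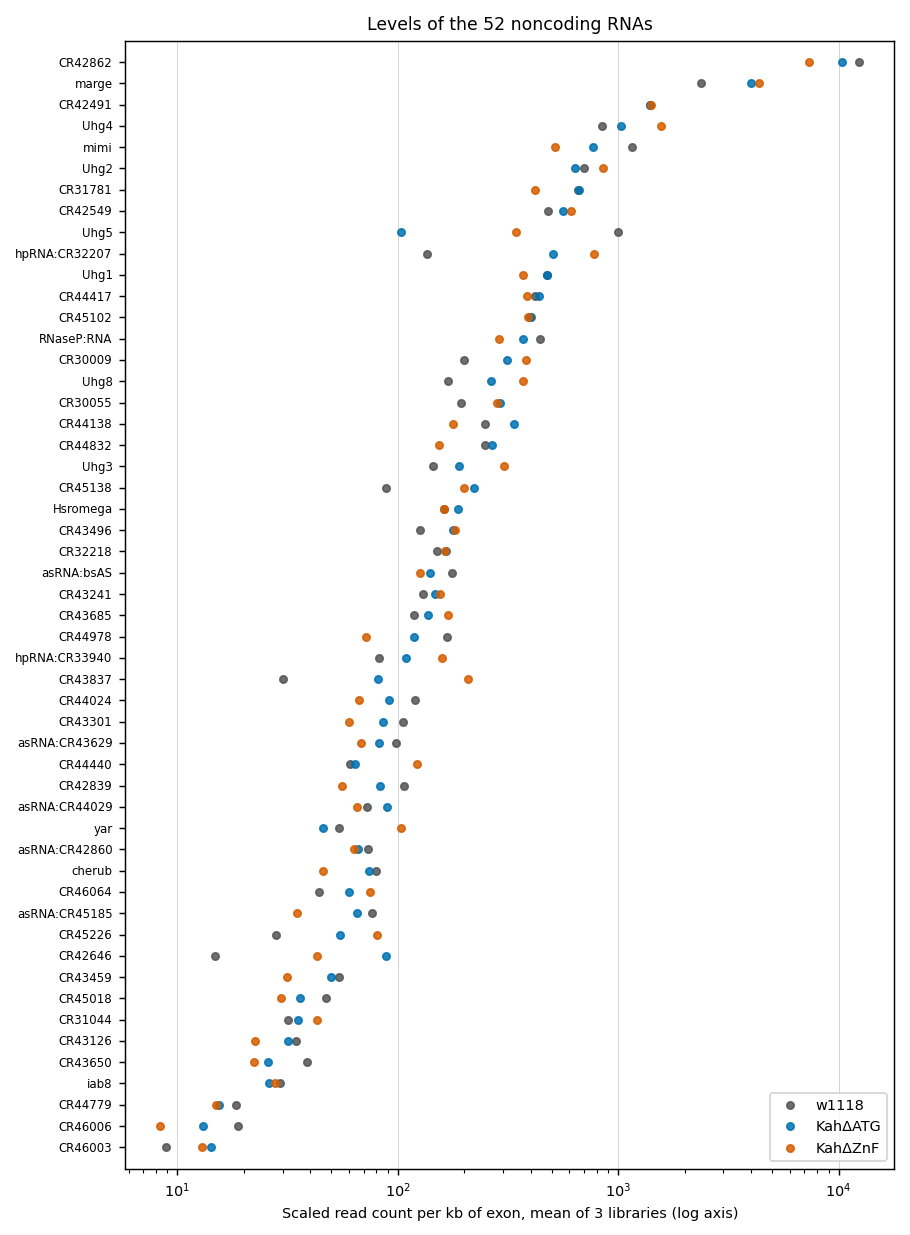
Level of each of the 52 members, as the scaled read count per kb of exon on a log axis. Points are means of 3 libraries per genotype, and rows are ordered by the mean over all 9 libraries, from 10014 for CR42862 down to 12 for CR46003. The 3 genotypes lie close together for most rows and far apart for Uhg5, hpRNA:CR32207, CR43837 and CR42646.

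Each mutant was compared with w1118 to ask which noncoding RNAs differ when Kah is disrupted. A gene was called where the limma test on log2(value + 1) gave a p of 0.05 or less after Benjamini-Hochberg adjustment over all genes tested and the log2 fold change was 0.59 or more in either direction. All 52 members passed the filter on low values in each comparison. In KahΔATG 9 members were higher and 2 lower, and 41 were not called. Over all 10972 genes tested, 14.7% were called higher and 10.6% lower, against 17.3% and 3.85% of the members. In KahΔZnF 14 members were higher and 17 lower, which is 26.9% and 32.7% of the members beside 23.8% and 25.5% of all 10957 genes tested. The members' median log2 fold change was 0.05 in KahΔATG and -0.06 in KahΔZnF, against -0.02 and 0.00 over all genes tested. The 310 less abundant noncoding RNAs that passed the filter had 29 called higher and 45 lower in KahΔATG and 48 higher and 86 lower in KahΔZnF. Both comparisons use the same w1118 libraries, so the values of the mutants are given side by side and their likeness is not counted as a result. Libraries that do not overlap between genotypes were common. All 3 libraries lay on 1 side of w1118 for 26 of the 52 members in KahΔATG and for 39 in KahΔZnF, that is 50% and 75%, beside 58.1% and 74.6% of all genes, and the mutants did not overlap each other for 26 members, beside 59.4% of all genes.

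The choice of members fixed part of these counts. Of the 52 members, 7 had a w1118 mean under 100 and entered the group through the mutants. They were lncRNA:CR43837, Uhg8, lncRNA:CR42646, lncRNA:CR45138, lncRNA:CR45226, hpRNA:CR33940 and lncRNA:CR44440. All 7 of them were called higher in KahΔZnF and 5 of them in KahΔATG, and because the rule used their high mutant values, their calls and ranks are given as a description only. Choosing instead by the w1118 libraries alone, which was added after the data were seen, took 49 genes. Of these, 4 were higher and 4 lower in KahΔATG (8.16% each), beside 14.7% and 10.6% of all genes tested. In KahΔZnF 7 were higher and 20 lower (14.3% and 40.8%), beside 23.8% and 25.5%. That choice used high w1118 values, which favours genes lower in the mutants, so these counts are a description too.

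**Figure D2:**
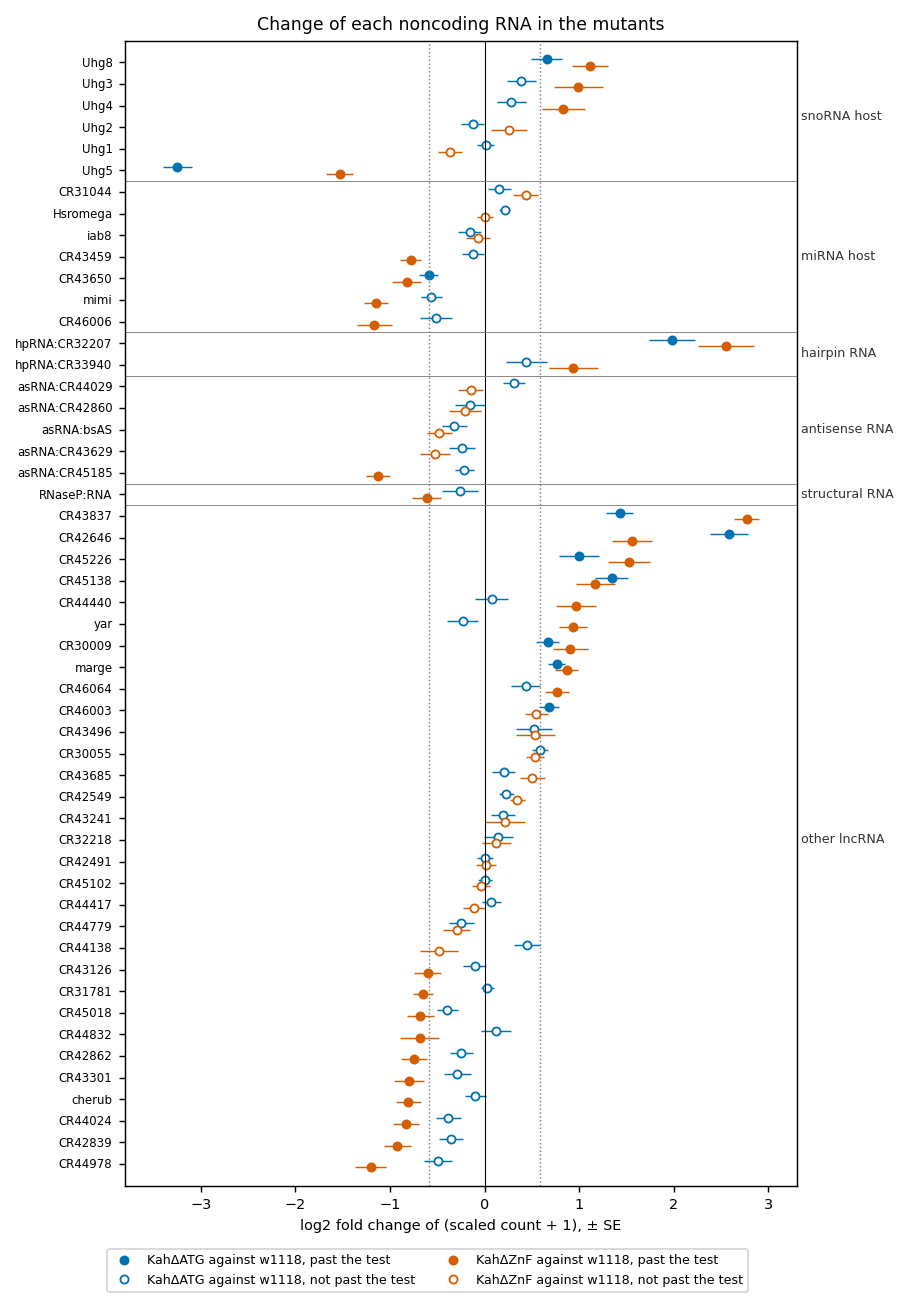
Log2 fold change of every member in KahΔATG (blue) and KahΔZnF (orange) against w1118, with bars of 1 SE and dotted lines at 0.59 in either direction. Filled points passed the test and rows are grouped by kind of RNA. Uhg5 stands alone at the left at -3.25 and -1.53, while CR43837 reaches 2.77 in KahΔZnF and CR42646 reaches 2.59 in KahΔATG.

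Among the snoRNA hosts, Uhg5 (2R:14621601-14624498) fell most of all members in both mutants. The gene holds 11 annotated snoRNAs, most of which guide methylation of ribosomal RNA. Its scaled counts were 935, 725 and 762 in w1118, 79.1, 73 and 99.7 in KahΔATG and 223, 302 and 311 in KahΔZnF. The 3 genotypes did not overlap, with w1118 highest and KahΔATG lowest. Uhg5 fell by 3.25 ± 0.15 on the log2 scale in KahΔATG (SE, limma adjusted p = 8.1e-07) and by 1.53 ± 0.15 in KahΔZnF (adjusted p = 6.8e-06). The nearest protein-coding gene, CG12863, lies 281 bases away and was not called, at -0.09 ± 0.15 in KahΔATG and 0.08 ± 0.17 in KahΔZnF. Of the 11 snoRNAs, 8 were listed in both tables, with summed scaled counts of 4.17 to 24.5 per library, and none of the 8 reached the filter, so the mature snoRNAs of this host are not described here.

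The other Uhg genes did not follow Uhg5. Uhg8 was at 98.7, 77.2 and 74.3 scaled counts in w1118, 142, 114 and 138 in KahΔATG and 147, 176 and 227 in KahΔZnF. All 6 mutant libraries lay above all w1118 libraries, and Uhg8 was called in both mutants, at 0.66 ± 0.17 in KahΔATG (limma adjusted p = 0.0092) and 1.12 ± 0.19 in KahΔZnF (adjusted p = 0.00034). Without w1118 replicate 3 (0.57), or with the mitochondrial split as a term (0.38), the call in KahΔATG was lost. Uhg8 is 1 of the 7 that entered through the mutants.

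Uhg3 was at 130, 124 and 109 in w1118, 137, 153 and 185 in KahΔATG and 145, 311 and 308 in KahΔZnF. Uhg4 was at 481, 374 and 387 in w1118, 537, 395 and 584 in KahΔATG and 474, 895 and 927 in KahΔZnF. In both genes KahΔZnF replicate 1, the KahΔZnF library with a mitochondrial share of 8.67%, lay far below replicates 2 and 3, and for Uhg4 it lay within the w1118 range. Both were called higher in KahΔZnF, Uhg3 at 0.99 ± 0.26 (limma adjusted p = 0.0056) and Uhg4 at 0.83 ± 0.23 (adjusted p = 0.0069). Without that library the log2 fold changes were 1.36 for Uhg3 and 1.15 for Uhg4, and both calls held. Neither was called in KahΔATG, where Uhg3 was at 0.39 ± 0.15 and Uhg4 at 0.28 ± 0.16.

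Uhg2 and Uhg1 were called in neither mutant. Uhg2 was at 332, 279 and 270 in w1118, 301, 240 and 262 in KahΔATG and 250, 411 and 411 in KahΔZnF, where replicate 1 again stood below the other 2. Uhg1, which holds 16 annotated snoRNAs, was at 528, 485 and 499 in w1118, 515, 529 and 473 in KahΔATG and 345, 368 and 467 in KahΔZnF, so that all 3 KahΔZnF libraries were the lowest. A further Uhg gene, Uhg7, was under the limit at a mean of 20 and was called in neither mutant.

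**Figure D3:**
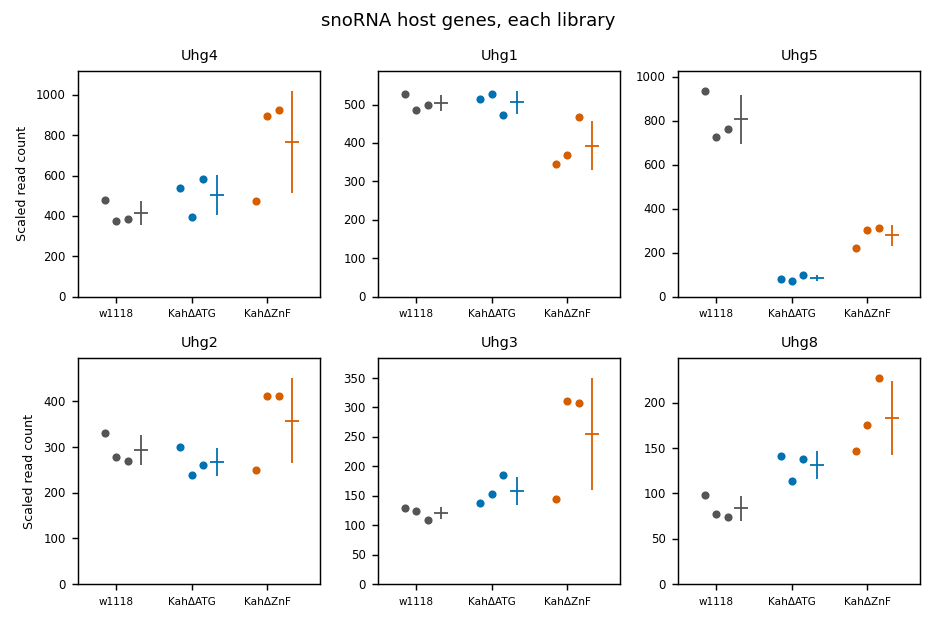
Scaled read counts of the 6 Uhg members (snoRNA hosts) in each library, with axes from 0. Points are replicates 1 to 3 from left to right and the bar beside them is the mean with its SD (n = 3). Uhg5 is lowest in KahΔATG, and in Uhg2, Uhg3, Uhg4 the first KahΔZnF library lies below the other 2.

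Of the 7 members with miRNAs inside them, 4 were called lower in KahΔZnF and 1 in KahΔATG. Over all genes tested 25.5% and 10.6% were called lower there. lncRNA:CR46006 (3L:10323501-10367450) is annotated around mir-276a, a miRNA known from olfactory memory. It was at 222, 158 and 198 scaled counts in w1118, 144, 112 and 146 in KahΔATG and 106, 81.6 and 69.4 in KahΔZnF. The KahΔZnF libraries lay below all others, and the log2 fold change was -1.17 ± 0.19 in KahΔZnF (limma adjusted p = 0.00025) and -0.51 ± 0.17 in KahΔATG, which was not called.

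lncRNA:mimi, annotated with mir-9381, was at 1475, 1862 and 2057 in w1118, 1098, 1266 and 1245 in KahΔATG and 820, 869 and 722 in KahΔZnF. The 3 genotypes did not overlap. It fell by 1.15 ± 0.12 on the log2 scale in KahΔZnF (limma adjusted p = 1.6e-05), and in KahΔATG its value was -0.56 ± 0.11 (adjusted p = 0.003), just short of the fold change asked for. Without KahΔATG replicate 2 or without w1118 replicate 1 it was called there too, at -0.61 and -0.69.

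lncRNA:CR43650 (2R:16829095-16839494) holds mir-8, the fly relative of the vertebrate miR-200 family and known from growth control. It was at 371, 402 and 440 in w1118, 265, 289 and 246 in KahΔATG and 251, 262 and 178 in KahΔZnF, with every mutant library below every w1118 library. It fell by 0.59 ± 0.10 on the log2 scale in KahΔATG (limma adjusted p = 0.0014) and by 0.82 ± 0.15 in KahΔZnF (adjusted p = 0.00064). The KahΔATG value lay at the limit. The call was lost without KahΔATG replicate 1, KahΔATG replicate 3 or w1118 replicate 3 (-0.58, -0.53 and -0.54), with a pseudocount of 10 (-0.58) and with the mitochondrial split as a term (-0.47).

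lncRNA:CR43459 (3R:10093761-10101356) holds mir-277 and mir-34, the second known from the ageing fly brain. It was at 386, 407 and 437 in w1118, 352, 439 and 339 in KahΔATG and 260, 223 and 230 in KahΔZnF. The KahΔZnF libraries lay below all others, at -0.78 ± 0.11 (limma adjusted p = 9.7e-05), while KahΔATG was at -0.12 ± 0.12.

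The other 3 miRNA hosts were not called. lncRNA:CR31044, which holds mir-279 and mir-996 of sensory neuron development, was at 168, 170 and 149 in w1118, 197, 174 and 169 in KahΔATG and 241, 228 and 191 in KahΔZnF, at a log2 fold change of 0.44 ± 0.13 in KahΔZnF. lncRNA:iab8, the bithorax complex RNA known to repress abd-A in the posterior nervous system, had log2 fold changes of -0.16 ± 0.12 and -0.07 ± 0.13. Of its relatives in that complex, lncRNA:iab4 (mean 84.2) and lncRNA:bxd (mean 43.3) were under the limit.

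lncRNA:Hsromega, which builds the nuclear omega speckles that store RNA-binding proteins, was at 3451, 3447 and 3643 in w1118, 4067, 3947 and 4138 in KahΔATG and 3543, 3773 and 3244 in KahΔZnF. The KahΔATG libraries lay above w1118 by 0.21 ± 0.06 on the log2 scale, too little for a call, and KahΔZnF was at 0.00 ± 0.08. Of 9 genes measured from a list of 10 omega speckle proteins, 1 was called higher in KahΔATG and 7 in KahΔZnF, with medians of 0.46 and 0.77. Over all genes tested 14.7% and 23.8% were called higher, with medians of -0.02 and 0.00. The difference between the RNA and these genes was not tested.

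**Figure D4:**
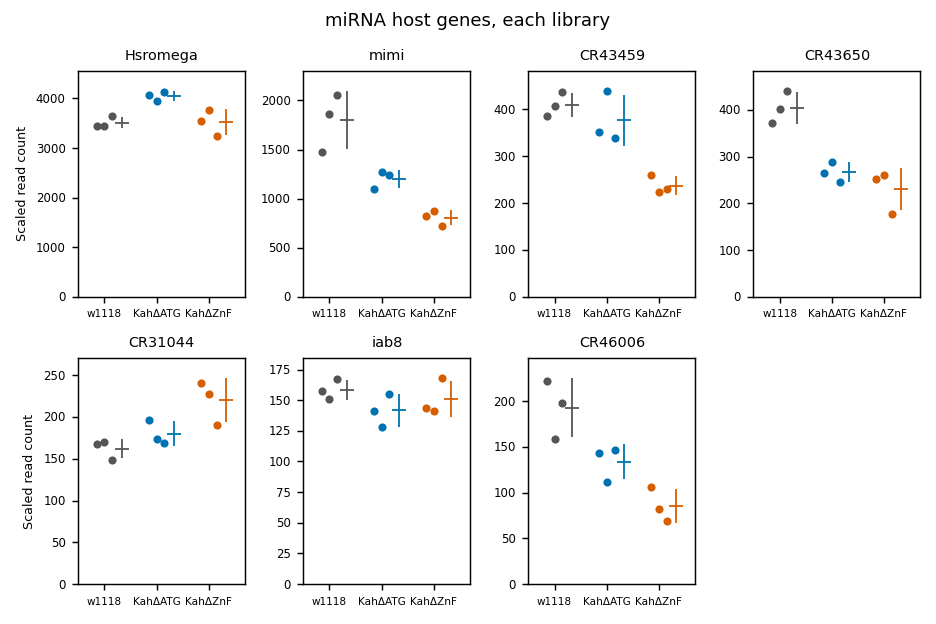
Scaled read counts of the 7 members with annotated miRNAs inside them, in each library, with axes from 0. Points are replicates 1 to 3 and the bar is the mean with its SD (n = 3). The KahΔZnF libraries are the lowest for CR46006, mimi and CR43459 and lie with the others for iab8.

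Both hairpin RNAs were called higher in KahΔZnF, where 23.8% of all genes tested were called higher. Of the 2, hpRNA:CR33940 had a w1118 mean under 100. Hairpin RNAs fold into long double strands that Dicer-2 cuts into endogenous small interfering RNAs. hpRNA:CR32207 (3L:19475630-19478720) was at 246, 121 and 122 scaled counts in w1118, 630, 597 and 602 in KahΔATG and 596, 1113 and 1120 in KahΔZnF. All mutant libraries lay above all w1118 libraries, at 1.98 ± 0.25 in KahΔATG (limma adjusted p = 0.00017) and 2.55 ± 0.30 in KahΔZnF (adjusted p = 2.5e-05). Within KahΔZnF, and within w1118, the library or libraries with a low mitochondrial share had the lower level. With the mitochondrial split as a term the values were 1.34 and 2.23 and both calls held.

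hpRNA:CR33940 (3L:19486746-19488439), also on 3L, was at 113, 69.7 and 66.5 in w1118, 121, 100.1 and 109 in KahΔATG and 109, 178 and 193 in KahΔZnF. It was called in KahΔZnF at 0.94 ± 0.26 (limma adjusted p = 0.0072) and not in KahΔATG at 0.44 ± 0.22, where it was called once w1118 replicate 1 was left out. w1118 replicate 1 and KahΔZnF replicate 1 lay at nearly the same level, and this RNA also entered through the mutants. The protein-coding gene nearest to hpRNA:CR32207, CG32213, went the other way in KahΔZnF, at -1.65 ± 0.31 (limma adjusted p = 0.00068). In KahΔATG CG32213 was not called, at -0.34 ± 0.28.

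Of the 5 antisense RNAs, 1 was called, as lower in KahΔZnF, where 25.5% of all genes tested were called lower. asRNA:CR45185, opposite the chitinase gene Cht6, was at 235, 243 and 267 in w1118, 208, 214 and 215 in KahΔATG and 114, 123 and 101 in KahΔZnF. It fell by 1.13 ± 0.13 on the log2 scale in KahΔZnF (limma adjusted p = 2.5e-05) and was at -0.22 ± 0.10 in KahΔATG. Cht6 had nearly the same values, -0.98 ± 0.12 and -0.37 ± 0.10, and exons of the pair overlap. asRNA:bsAS, which is antisense to the wing and muscle gene blistered and known to tune its isoforms, was not called at -0.32 ± 0.14 and -0.48 ± 0.14.

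RNaseP:RNA was at 143, 139 and 113 in w1118, 131, 117 and 83.9 in KahΔATG and 93.4, 81.6 and 81.8 in KahΔZnF. Its KahΔZnF value of -0.61 ± 0.15 (limma adjusted p = 0.0048) was only just called, and leaving out any one of KahΔZnF replicates 2 and 3 and w1118 replicates 1 and 2 (-0.58 to -0.55) or a pseudocount of 10 (-0.56) ended the call. It lies within the span of ATPsynC on the same strand, a gene called lower at -0.62 ± 0.08 in KahΔATG and -0.88 ± 0.10 in KahΔZnF. The related RNaseMRP:RNA and the 2 genes for the 7SL RNA of the signal recognition particle were under the limit, at means of 33.9, 11.6 and 12.8.

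Among the 31 remaining long noncoding RNAs, 7 were called higher in KahΔATG, and 9 higher and 10 lower in KahΔZnF. That is 22.6%, and 29.0% and 32.3%, beside 14.7%, and 23.8% and 25.5%, of all genes tested. The shares called higher include RNAs that entered the group through their mutant values. Over the 45 members of all kinds with a w1118 mean of 100 or more, 4 were higher and 2 lower in KahΔATG (8.89% and 4.44%). In KahΔZnF 7 of these 45 were higher and 17 lower (15.6% and 37.8%). First come 4 of the 7 RNAs with a w1118 mean under 100, whose high mutant values helped to choose them. lncRNA:CR43837 (X:6995882-6997799) had the highest KahΔZnF fold change of all members. It was at 57.1, 49.9 and 60.6 in w1118, 152, 151 and 150.1 in KahΔATG and 399, 374 and 384 in KahΔZnF. The 3 genotypes were far apart and tight within, at 1.43 ± 0.14 in KahΔATG (limma adjusted p = 4e-05) and 2.77 ± 0.13 in KahΔZnF (adjusted p = 9e-08). The gap junction gene Inx2, 873 bases away, was at 0.37 ± 0.07 and 0.70 ± 0.08, called in KahΔZnF.

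lncRNA:CR42646 (2R:5363253-5367357) had the opposite order of the mutants. It was at 48, 28.2 and 41.1 in w1118, 239, 234 and 228 in KahΔATG and 105, 120 and 118 in KahΔZnF, again with no overlap between the 3 genotypes. It rose by 2.59 ± 0.20 in KahΔATG (limma adjusted p = 9e-06) and by 1.56 ± 0.21 in KahΔZnF (adjusted p = 7.9e-05). Its neighbour CG10417, 149 bases away, was also called higher in both, but with the larger value in KahΔZnF, 0.95 ± 0.07 and 1.44 ± 0.08.

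lncRNA:CR45138 was at 78.8, 63.1 and 52.8 in w1118, 170, 151 and 171 in KahΔATG and 119, 142 and 181 in KahΔZnF. lncRNA:CR45226 was at 84.2, 58.4 and 47.9 in w1118, 131, 117 and 124 in KahΔATG and 154, 168 and 223 in KahΔZnF. Both were above every w1118 library in all 6 mutant libraries, at 1.35 ± 0.17 and 1.17 ± 0.20 for lncRNA:CR45138 and 1.0 ± 0.21 and 1.53 ± 0.22 for lncRNA:CR45226. lncRNA:CR45226 lies opposite plum, a gene for an immunoglobulin-family receptor of neurons, which was called higher in KahΔATG at 0.74 ± 0.14.

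The second most abundant member per kb, lncRNA:marge, was at 2681, 2299 and 2203 in w1118, 4247, 3698 and 4153 in KahΔATG and 3615, 4545 and 4993 in KahΔZnF. It was called higher in both, at 0.76 ± 0.09 (limma adjusted p = 0.00013) and 0.87 ± 0.12 (adjusted p = 0.0001). The Bearded-family gene Ocho, 586 bases away, was at 0.45 ± 0.12 and 1.03 ± 0.13. lncRNA:CR30009 was at 565, 453 and 442 in w1118, 764, 679 and 862 in KahΔATG and 656, 998 and 1138 in KahΔZnF, called at 0.67 ± 0.13 and 0.91 ± 0.18. In KahΔATG the calls of lncRNA:marge and lncRNA:CR30009 were lost with the mitochondrial split as a term, at 0.54 and 0.31, and that of lncRNA:CR30009 also without KahΔATG replicate 3, at 0.58.

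The most abundant member, lncRNA:CR42862, was at 54294, 70906 and 79294 in w1118, 55999, 59053 and 54646 in KahΔATG and 42694, 39561 and 37880 in KahΔZnF. Every KahΔZnF library was below every other library, at -0.75 ± 0.13 (limma adjusted p = 0.00051), and in KahΔATG the value of -0.25 ± 0.12 was not called. w1118 replicate 1 lay at the level of KahΔATG. CG33229, whose exons overlap it, was at 0.05 in KahΔATG and -0.01 in KahΔZnF.

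lncRNA:CR44978, opposite the receptor phosphatase gene Lar, had the lowest value of these RNAs in KahΔZnF. It was at 135, 172 and 180.0 in w1118, 110.4, 127 and 106 in KahΔATG and 63.5, 68 and 76.6 in KahΔZnF, at -1.21 ± 0.16 in KahΔZnF (limma adjusted p = 7.5e-05) and -0.49 ± 0.15 in KahΔATG. Lar itself was not called, at 0.17 ± 0.12 and -0.14 ± 0.13. lncRNA:CR31781 was at 1708, 1751 and 1802 in w1118, 1675, 1794 and 1888 in KahΔATG and 988, 1306 and 1061 in KahΔZnF. The KahΔZnF libraries lay below all others, at -0.66 ± 0.11 (adjusted p = 0.00025), and KahΔATG was at 0.03 ± 0.07. Without KahΔZnF replicate 1 the call was lost (-0.57).

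lncRNA:cherub, known from brain neuroblasts where it is passed unequally to the daughter cells, was at 606, 677 and 721 in w1118, 599, 711 and 561 in KahΔATG and 457, 368 and 323 in KahΔZnF. It fell by 0.81 ± 0.13 on the log2 scale in KahΔZnF (limma adjusted p = 0.00028), beside -0.10 ± 0.11 in KahΔATG. Of the 9 neuronal markers, 7 were called lower in KahΔZnF, beside 25.5% of all genes tested. Whether lncRNA:cherub and these markers changed together was not tested. Of the other lncRNAs called lower in KahΔZnF, lncRNA:CR42839 near the hemocyte factor gene srp was at -0.92 ± 0.14 and lncRNA:CR43126 near the forkhead gene fkh at -0.60 ± 0.14, while lncRNA:CR44024, lncRNA:CR43301, lncRNA:CR44832 and lncRNA:CR45018 were at -0.83, -0.80, -0.69 and -0.68. The call of lncRNA:CR43126 was at the limit and was lost with a pseudocount of 10 (-0.57), with the mitochondrial split as a term (-0.55) and without KahΔZnF replicate 3 or w1118 replicate 3 (-0.52 and -0.50). That of lncRNA:CR44832 was lost without KahΔZnF replicate 1 or w1118 replicate 3 (-0.54 and -0.53). The genes srp and fkh were not called, at -0.18 and -0.01. lncRNA:CR46064 was called higher in KahΔZnF at 0.76 ± 0.13 and lncRNA:CR46003, the longest of these RNAs, in KahΔATG at 0.68 ± 0.10. In the other mutant neither was called, with lncRNA:CR46064 at 0.43 ± 0.16 in KahΔATG and lncRNA:CR46003 at 0.55 ± 0.12 in KahΔZnF. lncRNA:CR44440 was at 68.8, 69.7 and 85.1 in w1118, 69.8, 73 and 92.8 in KahΔATG and 106, 154 and 189 in KahΔZnF, at 0.97 ± 0.21 in KahΔZnF, and its KahΔZnF level brought it into the group.

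The 11 long noncoding RNAs called in neither mutant ranged from -0.25 to 0.58 in KahΔATG and from -0.48 to 0.54 in KahΔZnF. lncRNA:CR45102 and lncRNA:CR42491 had log2 fold changes between -0.04 and 0.02 in both mutants, and lncRNA:CR42549 was at 0.23 ± 0.08 and 0.35 ± 0.08, not called. The snoRNA inside lncRNA:CR42491 lay at 104 to 153 scaled counts per library and was called in neither mutant.

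Of the 9 members higher in KahΔATG, 7 had a neighbouring or overlapping protein-coding gene that was tested, of which 2 were called higher and the rest were not called. Of the 14 higher in KahΔZnF, 11 had such a gene, with 3 called higher and 4 lower. Of the 17 lower there, 13 had one, with 3 called lower and 1 higher. Over all genes tested 14.7% were called higher and 10.6% lower in KahΔATG, and 23.8% and 25.5% in KahΔZnF. Whether members and neighbours changed together was not tested.

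The mutants were compared with each other to ask where the alleles differ. Of the 52 members, 4 were higher and 9 lower in KahΔZnF than in KahΔATG, that is 7.69% and 17.3%, beside 5.46% and 12.8% of all 11115 genes tested. The median was -0.09 over the members and 0.04 over all genes. The less abundant noncoding RNAs had 20 higher and 36 lower of 340 tested. Without KahΔZnF replicate 1, 11 members were higher and 10 lower. The shares over all genes without that library are not given here, so these counts cannot be set against the shares above. The 7 gained as higher were Uhg2, Uhg3, Uhg4, Uhg8, both hairpin RNAs and lncRNA:CR45226, with Uhg3 at 0.97 in place of 0.61 and Uhg4 at 0.87 in place of 0.55.

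The 4 higher in KahΔZnF were Uhg5 at 1.72 ± 0.16 (limma adjusted p = 1.4e-05), lncRNA:CR43837 at 1.34 ± 0.12 (adjusted p = 9.1e-06), lncRNA:yar at 1.17 ± 0.15 (adjusted p = 0.00013) and lncRNA:CR44440 at 0.90 ± 0.21 (adjusted p = 0.0039). Of these, lncRNA:CR43837 and lncRNA:CR44440 entered the group through their mutant levels, so that their values are a description, and choosing by the w1118 mean left 2 higher. Uhg5 was below w1118 in both mutants and less so in KahΔZnF, while lncRNA:CR43837 was above w1118 in both. lncRNA:yar, an RNA between yellow and achaete known from the regulation of sleep, was at 111, 117 and 90 in w1118, 103, 81.3 and 84.9 in KahΔATG and 185, 219 and 205 in KahΔZnF. It was called in KahΔZnF at 0.94 ± 0.15 and not in KahΔATG at -0.23 ± 0.16. CG32816, on the opposite strand of the lncRNA:yar span, was called lower in both mutants, at -0.60 ± 0.09 in KahΔATG and -1.13 ± 0.10 in KahΔZnF.

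Of the 9 lower in KahΔZnF, lncRNA:CR42646 at -1.03 ± 0.18 (limma adjusted p = 0.00081) was called above w1118 in both mutants, and it too entered through its mutant levels. lncRNA:CR44138 was at 138, 120 and 109 in w1118, 159, 177 and 161 in KahΔATG and 99, 64.9 and 100.4 in KahΔZnF. Its KahΔATG libraries were all above w1118 and its KahΔZnF libraries all below, at 0.45 ± 0.14 and -0.48 ± 0.20, neither of them called, and the mutants differed by -0.93 ± 0.17 (adjusted p = 0.0013). CG9813, on its opposite strand, was lower in KahΔZnF than in KahΔATG at -0.74 ± 0.16. asRNA:CR45185 differed by -0.91 ± 0.11 (adjusted p = 0.00013). The other 6 lay between -0.81 and -0.65, and among them were lncRNA:cherub at -0.71 ± 0.13, lncRNA:CR31781 at -0.68 ± 0.10, and the miRNA hosts lncRNA:CR43459 at -0.66 ± 0.12 and lncRNA:CR46006 at -0.65 ± 0.18. The call of lncRNA:CR43459 was lost without KahΔATG replicate 2 (-0.54), and that of lncRNA:CR46006 without KahΔZnF replicate 3 (-0.51) or KahΔATG replicate 3 (-0.58).

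**Figure D5:**
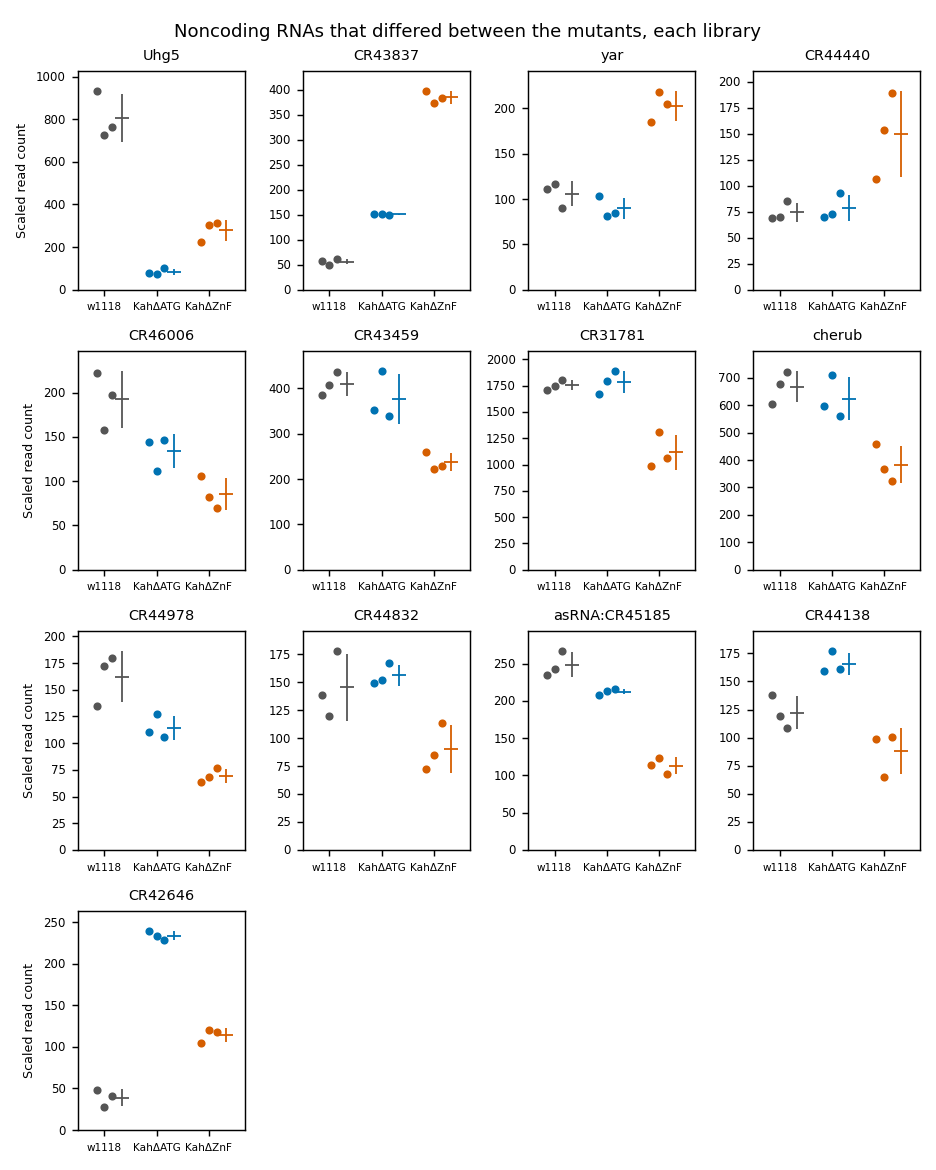
Scaled read counts in each library of the 13 members that differed between KahΔZnF and KahΔATG, ordered from the most positive to the most negative difference. Points are replicates 1 to 3, the bar is the mean with its SD (n = 3) and axes start at 0. Uhg5 is highest in w1118, CR43837 in KahΔZnF and CR42646 in KahΔATG.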

How the data were processed

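The authors aligned reads with HISAT2 2.0.5, counted them with featureCounts 1.5.0-p3 and scaled them with DESeq2 1.20.0, per the submitters' processing notes. The deposited values are a signal, reads on a gene divided by a size factor of its library, in 1 table per mutant with the same w1118 libraries. The tables also hold the authors' fold changes and p-values, which were not used. Whole reads were recovered for 100% of values above 0 (tolerance 0.01 reads). Each mutant was tested against w1118 on log2(value + 1) with limma 3.58.1 (R 4.3.3, trend), over genes with a value of 10 in at least 3 libraries. The mutants were compared on the recovered reads of 9 libraries scaled together.

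Coordinates are those of the tables, on the BDGP6 assembly, and 48 of 52 members had the same span in the Ensembl annotation. Members, marker lists (neurons, glia, muscle, hemocytes, midgut, germ cells, maternal RNA, adult gonad) and the omega speckle list were chosen with earlier results of these data known. Named were members with a name other than a number, the 10 with the highest means, the 5 largest and 5 smallest called changes per mutant (3 and 3 between mutants), those at the limit, and neighbours of the called ones named. Others given as examples were picked after their values were seen.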

Additional observations from a re-analysis of the deposited data

Results flagged for a closer look

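For 13 members the change against w1118 differed between the 2 alleles, tested as KahΔZnF against KahΔATG (limma, adjusted over all 11115 genes tested). The differences in log2 fold change were 1.72 for Uhg5, 1.34 for lncRNA:CR43837, 1.17 for lncRNA:yar, 0.90 for lncRNA:CR44440, -0.65 for lncRNA:CR46006, -0.66 for lncRNA:CR43459, -0.68 for lncRNA:CR31781, -0.71 for lncRNA:cherub, -0.71 for lncRNA:CR44978, -0.81 for lncRNA:CR44832, -0.91 for asRNA:CR45185, -0.93 for lncRNA:CR44138 and -1.03 for lncRNA:CR42646. The rule chose lncRNA:CR43837, lncRNA:CR42646 and lncRNA:CR44440 through their mutant levels. The methods state 1 collection per genotype, which the sample labels leave unsaid, and if so allele and collection cannot be told apart.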

How the results depend on the processing

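Counts below are members higher and lower. Tested against a fold change of 1.5 they were 4 and 1 in KahΔATG, 6 and 5 in KahΔZnF, and 0 lower in KahΔZnF than in KahΔATG (limma treat; main 9). With the mitochondrial split as a term, 6 were higher and 1 lower in KahΔATG, and 10 were higher and 12 lower between mutants. With a pseudocount of 10, 1 was lower in KahΔATG. A mean of 50 or more took 88 genes, with 4 lower in KahΔATG (4.55%), 26 in KahΔZnF (29.5%) and 15 between mutants (17.0%), beside 3.85%, 32.7% and 17.3% of the 52. A mean of 200 or more took 24, with 5 higher in KahΔATG, 5 higher and 9 lower in KahΔZnF (20.8% and 37.5%), and 2 and 3 between mutants. Over the 23 members with no exon overlap they were 4 and 1, 6 and 8 (26.1% and 34.8%), and 5 lower between mutants. By the w1118 mean (49 genes), a choice that favours genes lower in the mutants, they were 4 and 4 in KahΔATG and 7 and 20 in KahΔZnF. Between mutants they were 2 and 10. Leaving out 1 replicate gave 9 to 11 higher and 1 to 4 lower in KahΔATG, 14 to 16 and 15 to 17 in KahΔZnF, and 4 to 11 and 8 to 12 between mutants. The 4 lower came without w1118 replicate 1, the 11 higher between mutants without KahΔZnF replicate 1, and 1 lower in KahΔATG without KahΔATG replicate 1 or 3 or w1118 replicate 3. The causes were not tested, and shares over all genes are not given for fits other than the main one.

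With the replicate block 5 members were higher and 9 lower between mutants, and the other 4 counts were those of the main test. Deviations of same-numbered libraries from their genotype's mean correlated at 0.06 to 0.22 between KahΔATG and w1118. In the other pairs of genotypes they correlated at -0.25 to -0.02. With 3 libraries per genotype and the mitochondrial split among them, this check cannot tell whether same-numbered libraries shared a batch. edgeR gave 5 and 10 between mutants and DESeq2 6 and 9. Of all 52 members' values in the 3 comparisons under the alternatives to the fit, 2388 kept their side of the threshold, 61 lost a call, 47 gained one and 0 reversed.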
